A study of Sus scrofa with 6 samples.

Results

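The subunits and assembly factors of respiratory complexes III, IV and V were followed by mRNA signal in the longissimus dorsi, the long muscle of the back, of Shaziling and Yorkshire piglets. The rule for members used gene symbols and titles and no signals. A probe set was taken when its gene symbol began with UQCR, ATP5 or COX4 to COX8, when the symbol was CYC1 or CYCS, or when its title held cytochrome c oxidase, cytochrome b-c1 or ATP synthase. This gave 45 of the 23999 non-control probe sets of the array, for 42 genes or loci of the 8526 gene entries that the file names. They comprised 6 probe sets of complex III, 1 of cytochrome c, 21 of complex IV and 17 of complex V. The symbol selected 20 of them and the title alone selected the other 25. No member carried a COX4 symbol or the symbol CYC1, and subunits that the file names otherwise are outside the set.

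Each of the 6 Affymetrix porcine arrays measured 1 male piglet, 25 days old. The Shaziling group was 3 piglets of this indigenous Chinese breed from a resource farm, here Shaziling 4, 5 and 6 after the numbers in their labels. The Yorkshire group was 3 piglets of this widely used commercial breed from a breeding company, here Yorkshire 1, 2 and 3. Within each breed the piglets were full sibs, and the labels name no treatment for either group. Breed, litter and farm cannot be told apart, and p-values measure the spread between full sibs. Signals are log2 values made by MAS5, which scales every array to a common mean, so a difference is relative to that mean. Differences are on the log2 scale, Shaziling minus Yorkshire.

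Oxidative phosphorylation ends in these complexes. Complex III, the cytochrome b-c1 complex, passes electrons from ubiquinol to cytochrome c, complex IV, cytochrome c oxidase, passes them on to oxygen, and both drive protons across the inner mitochondrial membrane. Complex V, the ATP synthase, lets the protons flow back through its membrane part, Fo, and makes ATP in its catalytic head, F1. Several complex IV subunits exist in a form typical of heart and skeletal muscle and a form found in most tissues, and oxidative muscle fibres hold more of all these complexes than glycolytic ones.

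Present calls covered 56.3% to 59.9% of probe sets on the Shaziling arrays and 58.2% to 60.6% on the Yorkshire arrays (exact permutation test, two-sided, p = 0.3, where 0.1 is the smallest value that 3 arrays against 3 allow). The difference between 3' and 5' actin control probe sets, a measure of RNA length, was 4.16 to 4.98 in Shaziling and 4.82 to 5.11 in Yorkshire (exact permutation p = 0.3). For the GAPDH control probe sets it was -0.04 to 0.21 in Shaziling and 0.04 to 0.12 in Yorkshire (exact permutation p = 0.9). The actin difference was thus large on every array of both breeds and the GAPDH difference was not, and the cause of this disagreement was not tested. The tissue carried its label. All 10 skeletal fibre markers on the array had a Present call, with a log2 summed signal of 18.18 to 18.34 on the Shaziling arrays and 17.97 to 18.29 on the Yorkshire arrays. Of 6 genes on the array from the list of cardiac markers, NPPA, NPPB, TNNI3, MYL7 and HAMP had no Present call on any array. The remaining gene, RYR2, had a probe set with a Present call on 1 array. Among all 14413 probe sets tested, 31 passed the threshold.

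Probe sets of complexes III, IV and V were mostly bright, and their signals differed little between the breeds. Of the 45 member probe sets, 42 for 40 genes were Present on at least 3 arrays and were tested, 41 of them being Present on all 6. None of the 42 passed an adjusted p of 0.05 in limma, with a smallest adjusted p of 0.321, where 0.215% of all tested probe sets passed. The signal was above the 95th percentile of its array on every array for 27 of the 42 members, against 871 of all 14413 tested probe sets. The highest member signal was 14.76, and the brightest probe set of each array lay between 15.34 and 15.85. These values cannot show whether the signals of bright probe sets were compressed, which was not tested.

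The differences that were measured were small and their errors narrow. For 34 of 42 members (81%) the whole 95% interval of the breed difference lay within a 2-fold change in either direction, against 57.5% of all tested probe sets. For 22 members (52.4%) it lay within 1.5-fold, against 11.1% of all tested. The median SE was 0.17 for the members and 0.28 for all tested, and the median SD within a breed was 0.21 and 0.34, both on the log2 scale. The members were also brighter, with a median mean signal of 13.72 against 8.44, and probe sets of like brightness were not compared. For the 39 tested probe sets of respiratory complex I the share within 2-fold was 84.6%. At an unadjusted p under 0.05 in the same limma model, 4 of 42 members stood out, where 10.4% of all tested probe sets did. Of these, 3 were lower in Shaziling, with a background of 6.02%, and 1 was higher, with a background of 4.38%. Some limits hold for every value given here: probe signals of different genes are not levels of one against another, a bulk sample cannot tell fewer cells of a type from less RNA per cell, and mRNA signal is not the amount of a complex.

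**Figure D1:**
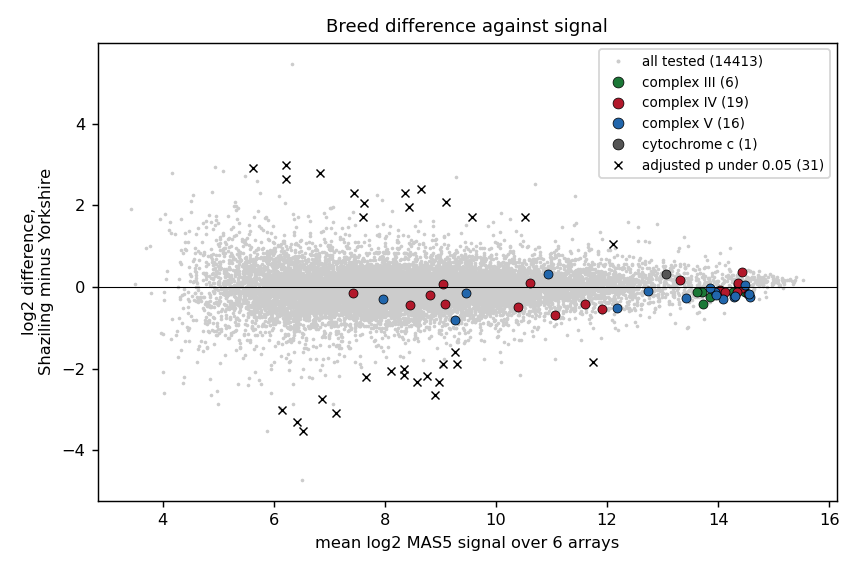
Breed difference (vertical axis, log2, Shaziling minus Yorkshire) against mean log2 signal over the 6 arrays (horizontal axis) for 14413 tested probe sets in grey, with the 42 members coloured by complex and the 31 probe sets past the threshold as crosses. The members crowd at the bright end, with a median mean signal of 13.72 against 8.44 for all tested, and lie between -0.82 and 0.37.

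Most of the small differences were on one side of 0. Signals were lower on average in Shaziling for 33 of 42 members (78.6%), against 53.8% of all tested probe sets, and the median log2 difference was -0.14 for the members and -0.04 for all tested. The counts below 0 were 6 of 6 for complex III, 13 of 19 for complex IV and 14 of 16 for complex V, with medians of -0.13, -0.13 and -0.21. Without array Shaziling 6 the count below 0 was 28 of 42 and the median -0.06, while the median of all tested stayed at -0.04. With each array centred on its median the medians of complexes III, IV and V were -0.05, -0.05 and -0.13, and with cyclic loess they were -0.24, -0.19 and -0.30. With the percentage of Present calls per array as a covariate they were -0.11, -0.03 and -0.12.

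**Figure D2:**
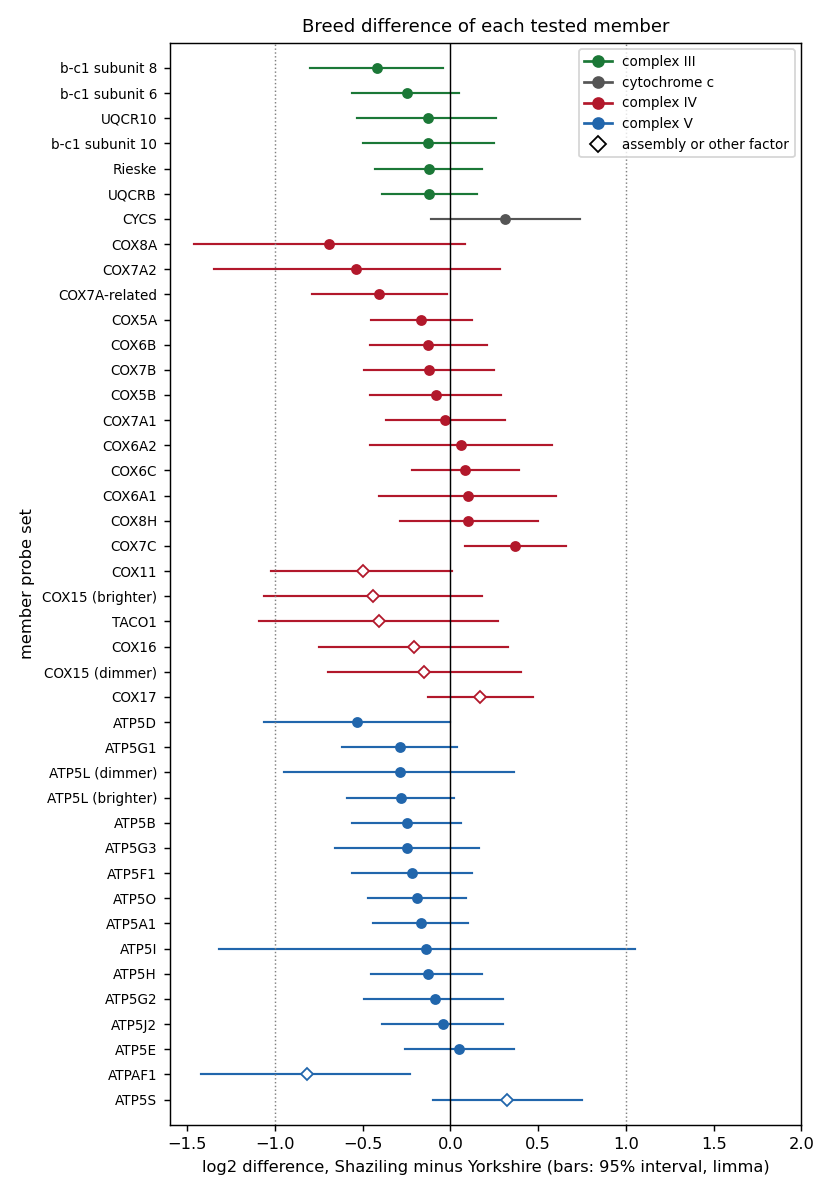
Log2 difference, Shaziling minus Yorkshire, for each of the 42 tested member probe sets, with the 95% interval of the limma model as a bar, filled circles for structural subunits and cytochrome c and open diamonds for assembly and other factors. Dotted lines mark a 2-fold change in each direction, and 34 of the 42 intervals lie within them.

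In complex III, all 6 subunits had a mean difference below 0, and array Shaziling 6 was the lowest of the 6 arrays for each of them. The Rieske iron-sulfur protein, which hands electrons on towards cytochrome c, had signals of 14.35, 14.24 and 14.04 on arrays Shaziling 4, 5 and 6, against 14.44, 14.18 and 14.38 on arrays Yorkshire 1, 2 and 3. Its breeds overlapped, with a log2 difference of -0.12 (SE 0.13, limma adjusted p = 0.79). UQCRB, known as the ubiquinone-binding protein, had the brightest probe set of the complex, at 14.50, 14.49 and 14.31 in Shaziling and 14.66, 14.55 and 14.45 in Yorkshire. It too had a difference of -0.12 (SE 0.12, limma adjusted p = 0.765), and its Shaziling 4 and 5 arrays lay inside the Yorkshire range.

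The largest difference in complex III was that of subunit 8, a small membrane-spanning subunit named here from a file title that calls it b-c1 subunit 8-like. It had 13.83, 13.54 and 13.20 on the Shaziling arrays, against 13.91, 13.89 and 14.02 on the Yorkshire arrays. The breeds did not overlap, yet Shaziling 4 was close to the Yorkshire arrays and Shaziling 6 far below them. The log2 difference was -0.42 (SE 0.17, 95% interval -0.80 to -0.04, limma adjusted p = 0.43), and it was -0.25 at its smallest when 1 array was left out. The subunit 6-like member, the acidic hinge protein that helps cytochrome c to dock, had 13.92, 13.74 and 13.56 in Shaziling, against 14.05, 13.95 and 13.97 in Yorkshire. Here the highest Shaziling array was just below the lowest Yorkshire array, and the difference was -0.25 (SE 0.13, limma adjusted p = 0.562).

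The last of the 6 had overlapping breeds. UQCR10, a small membrane subunit, shares its probe set with a second listed locus and had 13.90, 13.61 and 13.42 in Shaziling and 13.86, 13.49 and 13.97 in Yorkshire, a difference of -0.13 (SE 0.18). The subunit 10-like member had 13.72, 13.71 and 13.22 in Shaziling and 13.73, 13.54 and 13.76 in Yorkshire, also with a difference of -0.13 (SE 0.17). In both, Shaziling 4 and 5 lay within the Yorkshire range, and for subunit 10 the difference was 0.04 without Shaziling 6. Another pair of complex III probe sets carry titles that the rule did not select. Cytochrome c1, the haem protein that reduces cytochrome c, had a difference of -0.35 (SE 0.24, limma adjusted p = 0.665), with 13.30, 12.74 and 12.27 in Shaziling and 13.20, 12.93 and 13.22 in Yorkshire. A probe set titled ubiquinol-cytochrome c reductase had a difference of -0.56 (SE 0.29, limma adjusted p = 0.544). For both of these the array Shaziling 6 was again the lowest.

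Cytochrome c, the small soluble carrier between complexes III and IV, ran the other way from complex III. Its member probe set lists CYCS together with a second cytochrome c-like locus. Signals were 13.46, 13.13 and 13.05 on the Shaziling arrays and 12.69, 13.25 and 12.76 on the Yorkshire arrays. Yorkshire 2 lay among the Shaziling arrays, so the breeds overlapped, and the difference was 0.31 (SE 0.19, 95% interval -0.11 to 0.74, limma adjusted p = 0.61). It was between 0.19 and 0.49 when 1 array was left out.

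Of the 13 tested structural subunits of complex IV, with a COX7A-related protein counted among them, 8 had a mean difference below 0 and 5 above. Their median was -0.08. Without Shaziling 6, 5 were below 0 and the median was 0.09. The subunits packed around the catalytic core had differences near 0. COX5A, which sits on the matrix side and has the brightest probe set of complex IV, had 14.62, 14.48 and 14.26 in Shaziling and 14.59, 14.59 and 14.68 in Yorkshire, a difference of -0.17 (SE 0.13). COX5B, the zinc-binding matrix subunit, differed by -0.08 (SE 0.17), with both its highest array, Shaziling 4 at 14.26, and its lowest, Shaziling 6 at 13.64, in one breed. COX6B, which faces the intermembrane space, differed by -0.13 (SE 0.15), COX7B by -0.12 (SE 0.16) and COX6C by 0.08 (SE 0.14), with a sign for COX6C that turned under quantile normalization and cyclic loess (-0.04 in both).

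COX7C, a small subunit with a single membrane helix, had the highest difference of all members. Its signals were 14.70, 14.66 and 14.47 on the Shaziling arrays, against 14.27, 14.07 and 14.37 on the Yorkshire arrays. All Shaziling arrays were above all Yorkshire arrays, including Shaziling 6, which was low for most other subunits. The log2 difference was 0.37 (SE 0.13, 95% interval 0.08 to 0.66), a 1.29-fold higher mean, and did not pass the threshold (limma adjusted p = 0.348). It stayed between 0.29 and 0.44 when 1 array was left out. The file gives this probe set an alignment identity of 75.14%, one of 5 members with under 80%.

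A probe set titled COX7A-related protein was counted here with the structural subunits of complex IV, though its title does not call it a structural part. Among the probe sets so counted, it alone was below Yorkshire on all Shaziling arrays. It had 11.55, 11.18 and 11.48 in Shaziling, against 11.85, 11.76 and 11.81 in Yorkshire. The Yorkshire arrays lay within 0.09 of each other and the Shaziling arrays within 0.37, with Shaziling 5, not 6, the lowest. The difference was -0.41 (SE 0.17, 95% interval -0.79 to -0.02, limma adjusted p = 0.457).

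Over all members the breeds did not overlap for 9 of 42, where 16.3% of all tested probe sets had no overlap. Of these, 6 were lower in Shaziling, with a background of 8.89%, and 3 were higher, with a background of 7.42%. The lower ones were the subunit 6-like and 8-like members of complex III, COX7A-related, COX11, the brighter ATP5L probe set and ATPAF1. The higher ones were COX7C, COX17 and ATP5S. None of these 9 passed the threshold.

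The complex IV isoforms were compared within each array, since the affinity of the probes cancels in the breed difference of such a contrast. COX6A2, the muscle form of the subunit, had 9.44, 8.84 and 8.96 in Shaziling and 9.01, 8.96 and 9.09 in Yorkshire, a difference of 0.06 (SE 0.23). COX6A1, the form of most tissues, had 10.81, 10.55 and 10.64 in Shaziling and 10.56, 10.21 and 10.93 in Yorkshire, a difference of 0.10 (SE 0.22). The COX6A2 minus COX6A1 contrast was -1.59 ± 0.19 in Shaziling and -1.55 ± 0.29 in Yorkshire (SD, n = 3 each). The contrast therefore differed by -0.04 between the breeds (exact permutation test, two-sided, p = 0.9), and its sign turned under quantile normalization (0.03).

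COX7A1, the heart and muscle form, had a difference near 0, and COX7A2, the form of most tissues, was variable. COX7A1 had 14.55, 14.61 and 14.09 in Shaziling and 14.49, 14.39 and 14.47 in Yorkshire, a difference of -0.03 (SE 0.15, 95% interval -0.37 to 0.31) that was 0.05 after centring each array on its median. COX7A2 had 12.42, 11.15 and 11.34 in Shaziling and 12.37, 11.56 and 12.61 in Yorkshire, a difference of -0.54 (SE 0.36, 95% interval -1.35 to 0.28, limma adjusted p = 0.654). Shaziling 5 and 6 were below every Yorkshire array, and Shaziling 4 was above Yorkshire 1 and 2. The within-array contrast of COX7A1 minus COX7A2 was 2.78 ± 0.66 in Shaziling and 2.27 ± 0.50 in Yorkshire (SD, n = 3 each), a difference of 0.51 (exact permutation p = 0.4, Benjamini-Hochberg adjusted p = 0.8 over 6 pairs).

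Subunit 8 gave a like picture. COX8H, named as the heart form of the subunit, had 14.42, 14.75 and 14.05 in Shaziling and 14.36, 14.16 and 14.39 in Yorkshire, a difference of 0.10 (SE 0.18) that became -0.02 under quantile normalization and under cyclic loess. A probe set titled COX8A-like, the form of most tissues, had 11.51, 10.26 and 10.38 in Shaziling and 11.45, 10.99 and 11.78 in Yorkshire, a difference of -0.69 (SE 0.34, 95% interval -1.46 to 0.08, limma adjusted p = 0.531). The arrays had the same order for COX8A as for COX7A2, rank for rank on all 6, with Yorkshire 3 highest, then Shaziling 4, and Shaziling 5 lowest. The percentage of Present calls per array had this order too, on all 6 arrays. With it as a covariate in limma, the difference was -0.21 for COX8A (adjusted p = 0.771) and 0.00 for COX7A2 (adjusted p = 0.998). The contrast of COX8H minus COX8A, a pair chosen after the values were seen, was 2.91, 4.49 and 3.67 on the Shaziling arrays and 2.91, 3.16 and 2.61 on the Yorkshire arrays. It differed by 0.79 (exact permutation p = 0.3, adjusted p = 0.8), and by 0.39 without Shaziling 5. Another form, titled COX8C-like, had no Present call on any array and was not tested.

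**Figure D3:**
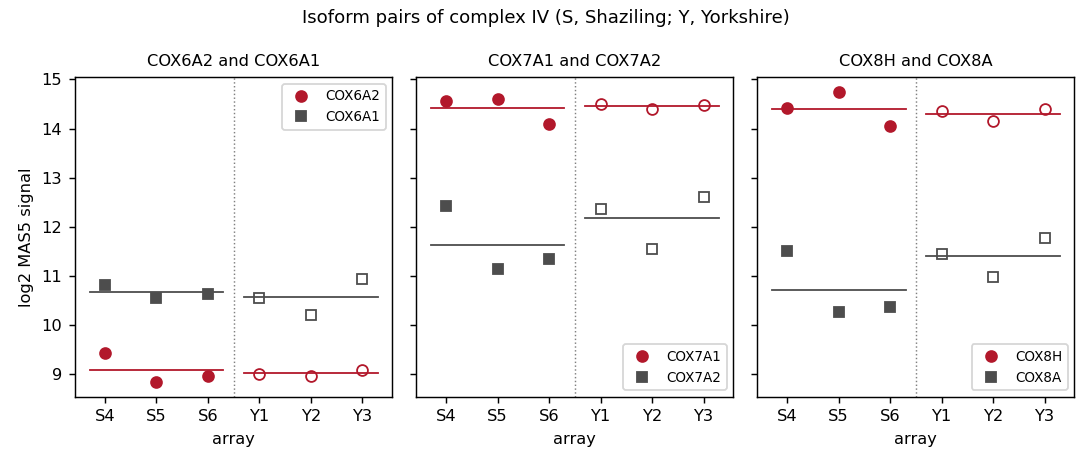
Log2 signal on each array for 3 isoform pairs of complex IV, with the muscle form in red circles and the form of most tissues in grey squares, Shaziling filled and Yorkshire open, and lines at the breed means (n = 3 each). The muscle forms COX7A1 and COX8H have breed means that differ by -0.03 and 0.10, while COX7A2 and COX8A vary together over the arrays, with Shaziling 5 and 6 lowest.

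The assembly factors of complex IV had dimmer and more variable probe sets than its subunits. Of 6 tested probe sets, 5 had a difference below 0, with a median of -0.31, or -0.08 without Shaziling 6. COX11, which delivers copper to the catalytic core, had 10.24, 9.96 and 10.26 in Shaziling, against 10.50, 11.06 and 10.41 in Yorkshire. All Shaziling arrays were below all Yorkshire arrays, by little except for Yorkshire 2, and the difference was -0.50 (SE 0.23, limma adjusted p = 0.494), or -0.30 at its smallest with 1 array left out.

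COX17, the copper chaperone that supplies the assembly line, had 13.51, 13.44 and 13.27 in Shaziling, against 13.23, 13.26 and 13.22 in Yorkshire. It had the narrowest range of all members over the 6 arrays, 0.29, and the breeds did not overlap. Its difference was 0.17 (SE 0.13, limma adjusted p = 0.705). TACO1, which activates translation of the mitochondrial COX1 message, had 9.45, 8.90 and 8.27 in Shaziling and 9.35, 9.35 and 9.16 in Yorkshire. Its Shaziling arrays spanned 1.19 on the log2 scale and its Yorkshire arrays 0.19, and the difference of -0.41 (SE 0.30) became -0.11 without Shaziling 6. COX15, needed for the haem A of the enzyme, had 3 probe sets, of which the brighter tested one differed by -0.44 (SE 0.28), the dimmer by -0.15 (SE 0.24), and the remaining one had no Present call. COX16 differed by -0.21 (SE 0.24).

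In complex V, 13 of 14 tested structural probe sets had a difference below 0, with a median of -0.21, and the one above 0 was ATP5E at 0.05. Without Shaziling 6 the count was 12 and the median -0.14. ATP5B, the catalytic beta subunit, with the brightest probe set of the complex, had 14.59, 14.54 and 14.19 in Shaziling and 14.75, 14.56 and 14.76 in Yorkshire. Shaziling 4 lay inside the Yorkshire range, and the difference was -0.25 (SE 0.14, 95% interval -0.56 to 0.06, limma adjusted p = 0.579). ATP5A1, the alpha subunit that alternates with beta in the F1 ring, had 14.63, 14.41 and 14.37 in Shaziling and 14.73, 14.62 and 14.58 in Yorkshire, a difference of -0.17 (SE 0.12). For ATP5A1, too, Shaziling 4 lay inside the Yorkshire range and Shaziling 5 and 6 below it.

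The delta subunit ATP5D, part of the central stalk, had the largest difference among the structural subunits of complex V. It had 12.46, 11.67 and 11.63 in Shaziling, against 12.33, 12.38 and 12.63 in Yorkshire. Shaziling 5 and 6 were below every Yorkshire array and Shaziling 4 was above Yorkshire 1 and 2. The difference was -0.53 (SE 0.24, 95% interval -1.06 to 0.00, limma adjusted p = 0.481), and it was -0.80 without Shaziling 4 and -0.28 with percent Present as a covariate. ATP5E, the epsilon subunit of the same stalk, had 14.53, 14.72 and 14.29 in Shaziling and 14.40, 14.58 and 14.40 in Yorkshire, a difference of 0.05 (SE 0.14) that became -0.06 under quantile normalization and -0.07 under cyclic loess. ATP5O, which joins F1 to the side stalk, differed by -0.19 (SE 0.12).

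The c subunit, whose ring turns as protons pass, is made from several genes with near-identical mature proteins, and their probe sets were compared with each other in every array. ATP5G1 had 14.17, 13.96 and 13.68 in Shaziling and 14.30, 14.15 and 14.25 in Yorkshire, a difference of -0.29 (SE 0.15, limma adjusted p = 0.535). ATP5G2 had 12.87, 12.57 and 12.60 in Shaziling and 12.59, 13.06 and 12.68 in Yorkshire, a difference of -0.09 (SE 0.18), and ATP5G3 had 14.43, 14.06 and 13.96 in Shaziling and 14.59, 14.05 and 14.57 in Yorkshire, a difference of -0.25 (SE 0.18). The breeds overlapped in all of them, and ATP5G1 came nearest to separating, with Shaziling 4 above Yorkshire 2 by a small margin. Within arrays, the ATP5G1 minus ATP5G2 contrast differed by -0.20 between the breeds, that of ATP5G1 minus ATP5G3 by -0.04 and that of ATP5G2 minus ATP5G3 by 0.16, with exact permutation p-values of 0.4, 1 and 0.7. The COX4 and COX6B pairs and the pair of COX8A with COX8C were not tested, since one or both genes were missing from the tested members.

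None of the other Fo subunits passed the threshold. ATP5F1, the b subunit of the side stalk, differed by -0.22 (SE 0.15), ATP5H, the d subunit, by -0.13 (SE 0.14) and ATP5J2, the f subunit, by -0.04 (SE 0.15), the last with its sign turned (0.03) after centring each array on its median. ATP5L, the g subunit, had 2 probe sets at the same locus. The brighter had 13.44, 13.29 and 13.12 in Shaziling, against 13.60, 13.54 and 13.56 in Yorkshire, with no overlap and a difference of -0.28 (SE 0.14, limma adjusted p = 0.524). The dimmer, at 8.11, 7.78 and 7.56 in Shaziling and 8.16, 8.52 and 7.64 in Yorkshire, overlapped and differed by -0.29 (SE 0.29), so both probe sets gave one direction. ATP5I, the e subunit, was the least certain member. It had 9.12, 8.48 and 10.60 in Shaziling and 10.30, 8.89 and 9.42 in Yorkshire, a range of 2.13, and a difference of -0.14 (SE 0.53, 95% interval -1.32 to 1.05). Its highest array, Shaziling 6, was the one without a Present call, and the file gives the probe set an alignment identity of 41.1%. ATP5O and COX6B had identities of 43.84% and 45.83%, and their ranges over the 6 arrays were 0.34 and 0.49.

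Of the factors of complex V, ATPAF1 had the largest difference and the smallest p of all members. ATPAF1 binds the beta subunit while F1 is put together. It had 9.03, 8.91 and 8.62 on the Shaziling arrays, against 10.11, 9.25 and 9.67 on the Yorkshire arrays. The breeds did not overlap, and Yorkshire 1 was highest. The log2 difference was -0.82 (SE 0.26, 95% interval -1.42 to -0.23), a 1.77-fold lower mean in Shaziling, and it did not pass the threshold (limma adjusted p = 0.321). When limma weighted the arrays, it was -1.17 with an adjusted p of 0.0351, the one member to pass in any alternative, and in that fit 2.53% of all tested probe sets passed. That fit gave Yorkshire 1, the array where ATPAF1 was highest, a weight of 3.618, against 0.4828 to 1.541 for the other arrays. Without weights the ATPAF1 difference was between -1.04 and -0.61 when 1 array was left out.

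ATP5S, a coupling factor also known as factor B, ran opposite to ATPAF1. It had 11.04, 11.34 and 10.93 in Shaziling, against 10.82, 10.84 and 10.67 in Yorkshire. All Shaziling arrays were above all Yorkshire arrays, with a difference of 0.32 (SE 0.19, 95% interval -0.10 to 0.75, limma adjusted p = 0.594). A probe set of another locus, titled ATP synthase subunit s-like, had no Present call and was not tested.

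The spread between full sibs was wider in Shaziling than the breed difference for most members. The 3 Shaziling arrays had a range above the breed difference for 38 of 42 members (90.5%), against 79.5% of all tested probe sets. The 3 Yorkshire arrays did so for 27 of 42 (64.3%), against 78.8% of all tested. As medians over the complex, the arrays of the Shaziling sibs spanned 0.39, 0.45 and 0.39 for complexes III, IV and V, and those of the Yorkshire sibs 0.18, 0.21 and 0.10. The median of all tested probe sets spanned 0.07 in Shaziling and 0.03 in Yorkshire.

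**Figure D4:**
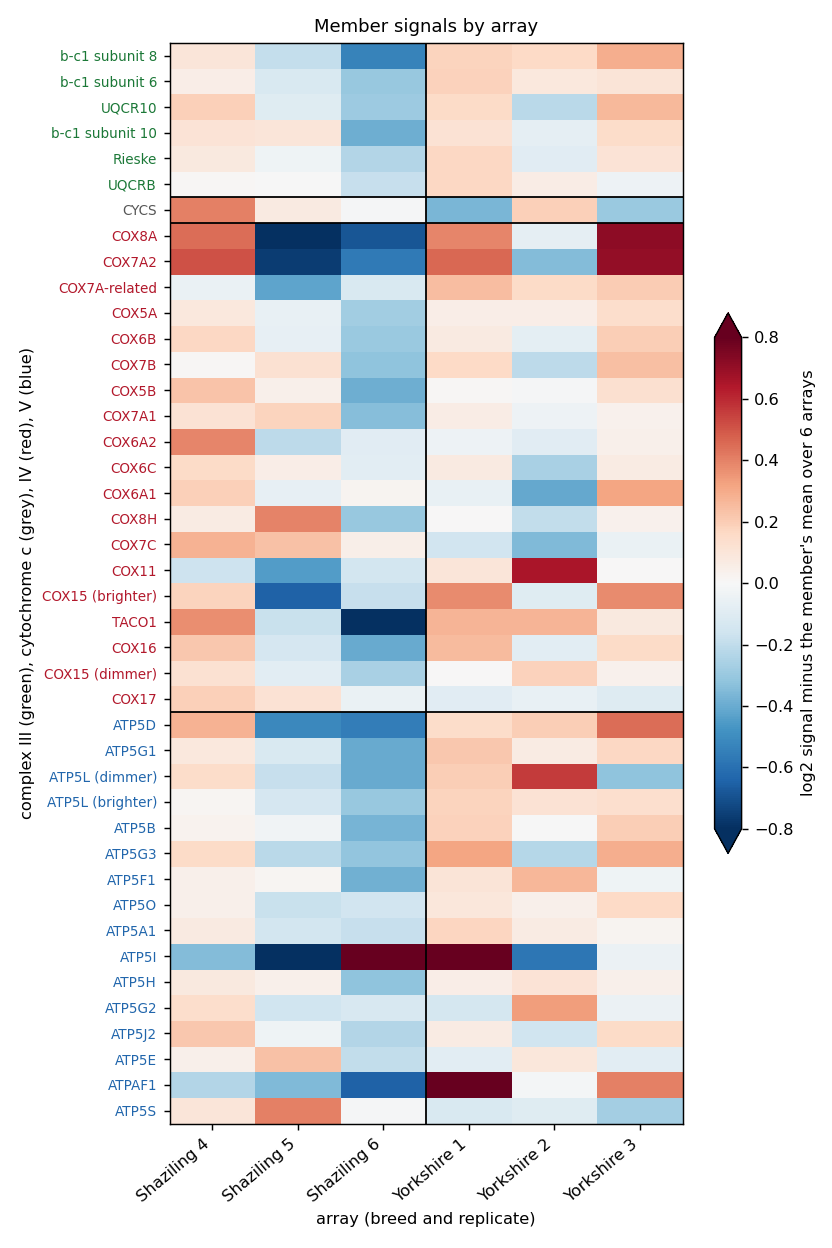
Log2 signal of each tested member on each array minus the member's mean over the 6 arrays, red above and blue below, with the colour scale capped at 0.8 in each direction, Shaziling columns left of Yorkshire columns, and names coloured by complex. The Shaziling 6 column is blue for most members, and it is the lowest array for 27 of 42.

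Array Shaziling 6 was at the low end of that spread for most members. It was the lowest of the 6 arrays for 27 of 42 members (64.3%), where it was the lowest for 15.1% of all tested probe sets. It was below every Yorkshire array for 34 of 42 (81%), against 28% of all tested. Its sib Shaziling 4 was the lowest array for 0 of 42, and lay within or above the Yorkshire arrays for 36 of 42 (85.7%, against 74.8% of all tested).

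The contrast between these full sibs ran through all 3 complexes. Shaziling 4 was above Shaziling 6 for 40 of 42 members (95.2%), where 51.3% of all tested probe sets were, with a median of 0.39 between them against 0.02 for all tested. The exceptions were ATP5I and COX11. As a median deviation from each probe set's mean, complex III had 0.09, -0.06 and -0.30 on arrays Shaziling 4, 5 and 6, complex IV 0.17, -0.07 and -0.27, and complex V 0.08, -0.14 and -0.31. The Yorkshire arrays 1, 2 and 3 had 0.17, -0.01 and 0.12 for complex III, 0.07, -0.08 and 0.13 for complex IV, and 0.16, 0.06 and 0.09 for complex V. All tested probe sets stayed between -0.04 and 0.05 on every array.

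The rest of the chain had the same order of arrays within Shaziling. For the 39 tested probe sets of complex I, the NADH dehydrogenase, the median deviation was 0.16, -0.11 and -0.34 on Shaziling 4, 5 and 6, and Shaziling 6 was the lowest array for 28 of them (71.8%). For the 5 of complex II, succinate dehydrogenase, it was 0.08, -0.35 and -0.62, and Shaziling 6 was lowest for all 5. Shaziling 6 had Present calls for 58.1% of probe sets and an actin 3' minus 5' difference of 4.98, against 59.9% and 4.16 on Shaziling 4. The Yorkshire arrays had 58.2% to 60.6% and 4.82 to 5.11. By the GAPDH control probe sets the difference was -0.04 on Shaziling 6, 0.21 on Shaziling 4 and 0.04 to 0.12 in Yorkshire. The part of these measures in the low signals of Shaziling 6 was not tested.

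**Figure D5:**
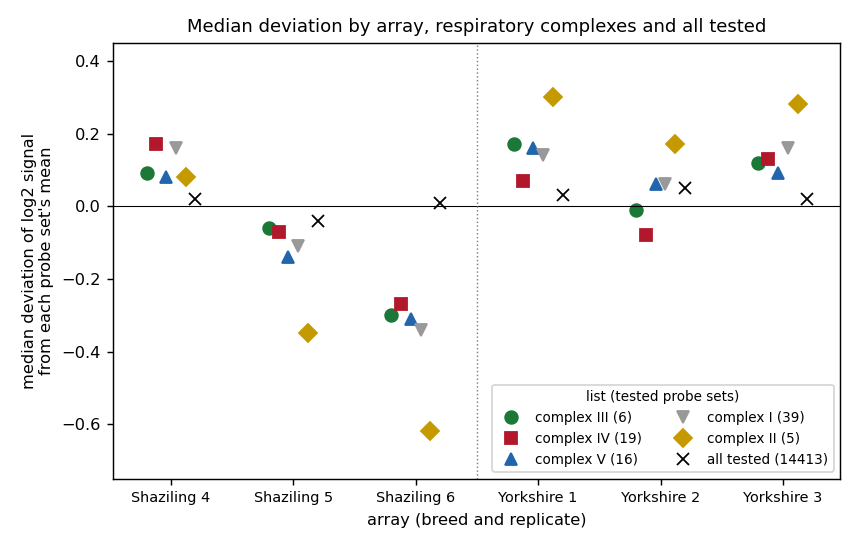
Median over each list of the log2 signal on an array minus the probe set's mean over the 6 arrays (vertical axis), for the 6 arrays, Shaziling left of Yorkshire. In Shaziling every respiratory complex is highest on array 4 and lowest on array 6, while all tested probe sets stay near 0.

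By breed, complex I had 31 of 39 differences below 0 with a median of -0.19, and complex II 5 of 5 with a median of -0.44. Without Shaziling 6 these became 25 of 39 with a median of -0.07, and 4 of 5 with a median of -0.26. No probe set of either complex passed the threshold. Complexes III and IV thus had medians nearer 0 than complexes I, II and V, a difference between complexes that was not tested.

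Other genes of the pathway, in lists drawn up with earlier results of these data known, gave no call either. Of 10 assembly and expression factors on the array, 6 of them members, 8 had a difference below 0 by their brightest probe set, with a median of -0.42. ATP5S, which the list holds under its newer symbol DMAC2L, is not among these 10, and its difference was 0.32. LYRM7, which guides the Rieske protein into complex III, had -0.90 (SE 0.46, limma adjusted p = 0.539). Its signal was dim, with means of 5.35 in Shaziling and 6.24 in Yorkshire and Present calls on 5 arrays. COX8C, with no Present call, had means of 5.28 and 5.39. SCO2, a copper carrier for complex IV, had 0.04 (SE 0.26). TMEM70, an ATP synthase assembly factor, had 4 tested probe sets of both signs, with -0.45 for the brightest (SE 0.22, limma adjusted p = 0.531), -0.28 and -0.15 for those between, and 0.78 for the dimmest (SE 0.41). Of 9 tested carriers, 8 were below 0 with a median of -0.25. SLC25A4, the ADP/ATP carrier of muscle, had 0.08 (SE 0.11), and SLC25A3, which imports the phosphate that complex V uses, had -0.26 (SE 0.11, adjusted p = 0.463).

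All 8 tested regulators were below 0 by their brightest probe set, with a median of -0.26. Their summed log2 signal was 13.95 to 14.44 in Shaziling and 14.47 to 14.56 in Yorkshire. That sum was mostly the signal of the brighter ATPIF1 probe set, at 13.70 ± 0.38 in Shaziling and 13.97 ± 0.04 in Yorkshire (SD, n = 3 each). PPARGC1A, a coactivator of mitochondrial biogenesis, was 9.65 ± 0.39 in Shaziling and 10.59 ± 0.18 in Yorkshire (SD, n = 3 each), a difference of -0.94 (SE 0.24, limma adjusted p = 0.23). SIRT3, a mitochondrial deacetylase, had -0.85 (SE 0.25, adjusted p = 0.295), and TFAM, which packages and transcribes mitochondrial DNA, had -0.12 (SE 0.23). ATPIF1, the inhibitor protein of ATP synthase, had 2 tested probe sets of opposite sign, -0.27 for the brighter (SE 0.18) and 0.47 for the dimmer (SE 0.24), and the breeds could not be ordered by it.

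Markers of fibre type and of other cells were set beside these values. Of 11 slow oxidative fibre genes, 6 had a difference below 0 and 5 did not, with a median of -0.03 and a summed log2 signal of 17.69 to 17.84 in Shaziling and 17.55 to 18.10 in Yorkshire. MYH7, the slow myosin heavy chain, had a difference of 0.05 (SE 0.11), and MB, the oxygen store myoglobin, of -0.99 (SE 0.28, limma adjusted p = 0.288). On Shaziling 4 and Shaziling 6 the summed slow fibre signal was the same, 17.84. That sum was mostly the signal of MYL2, MYH7, TNNT1, ATP2A2 and TNNC1, with differences of -0.03 to 0.11 by their brightest probe sets. MB, MYOZ2, CSRP3 and FABP3 were a smaller part of it, with differences of -0.99, -0.62, -1.01 and -0.47. An equal sum therefore does not show equal signals of these dimmer genes on both arrays. The endothelial sum, with 2 of 5 tested genes below 0, was 12.82, 12.39 and 11.96 on Shaziling 4, 5 and 6 and 11.88 to 12.95 in Yorkshire, so it followed the order of the complexes within Shaziling. The sum was mostly the signal of the 2 genes below 0, PECAM1 at -0.17 (SE 0.36) and CDH5 at -0.68 (SE 0.29). The other 3 were above 0, with VWF at 2.25 (SE 0.45, limma adjusted p = 0.12), so the endothelial genes did not share a direction.

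The fibroblast, adipocyte and blood sums did not follow the order of the complexes within Shaziling. The fibroblast sum, with 4 of 4 tested genes below 0, was 15.53 to 15.88 in Shaziling and 15.47 to 15.96 in Yorkshire. The adipocyte sum, with 2 of 4 below 0, was 13.20 to 13.55 in Shaziling and 13.21 to 13.89 in Yorkshire. The sum of 3 tested blood cell genes was 9.33, 9.88 and 10.24 on Shaziling 4, 5 and 6 and 8.68 to 10.09 in Yorkshire, and LYZ, the lysozyme of macrophages and neutrophils, was the one marker past the threshold, higher in Shaziling by 2.05 (SE 0.30, limma adjusted p = 0.0425). Of the liver list, ALB had no Present call, and the sum of 2 tested genes was 10.80, 10.27 and 10.26 on Shaziling 4, 5 and 6 and 10.12 to 11.11 in Yorkshire, with a median difference of -0.22. The part of these cells in the respiratory signals was not tested.

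The file places 43 of the 45 probe sets on 16 chromosomes, in an assembly whose version the file does not give readably, and gives no position for COX7A1 and ATP5G2. The subunit 8-like gene of complex III lies on chromosome 2 at 123096877 to 123098661 on the plus strand, and COX7C on the same chromosome at 83936950 to 83942301. ATPAF1 is placed on chromosome 6 at 117899649 to 117916529, and the subunit 6-like gene of complex III near it, at 118182208 to 118192630. COX7A-related lies on chromosome 3 at 91493931 to 91494333, COX11 on chromosome 12 at 28934156 to 28935448, COX17 on chromosome 13 at 105346041 to 105356331, ATP5L on chromosome 9 at 44591823 to 44600734 and ATP5S on chromosome 1 at 188442196 to 188453102. The 9 members without overlap between breeds are thus spread over 7 chromosomes.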

How the data were processed

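Total RNA of longissimus dorsi was labelled with a 3' kit and hybridised to 1 array per animal, per the labels' protocols. The authors' deposited values are log2 signals from MAS5, a step named in the submitters' processing notes (version not given in the sources used here). The 2% trimmed mean of the linear signals was 500.1 to 500.2 on the arrays. Deposited calls are Present, Marginal or Absent, per the file headers.

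Of 24123 probe sets, 124 controls were left out, and those Present on at least 3 of 6 arrays were tested, 14413 in all, each probe set on its own. limma 3.58.1 (R 4.3.3; lmFit, eBayes with trend, no covariate, no offset) gave Shaziling minus Yorkshire. P-values were adjusted over the whole tested table by Benjamini-Hochberg, with 0.05 as the threshold. The fit was also run on simulated data with independent noise. These had neither full sibs nor an array low for many related probe sets, so they cannot show how the fit behaves there. Exact permutation tests used scipy 1.17.1.

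Names come from the file's symbols, a RefSeq table of the pig (for 7 members) or, where the file has a locus ID alone, its title. The text names, with values, in each complex the 4 genes of smallest p and the brightest, the isoform pairs and cytochrome c; other members are accounted for. Members and lists were chosen with earlier results of these data known. The alternatives concerned the filter, the scaling, the offset, the prior, array weights, a covariate, several probe sets of a gene and single arrays. Counts without Shaziling 6 and medians over structural subunits alone were chosen after seeing the data. The number of arrays limits the precision.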

Additional observations from a re-analysis of the deposited data

How the results depend on the processing

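No paired analysis was possible because the breeds were different piglets of different litters, with nothing that pairs them. The number of probe sets past the threshold was 31, but 19 with Present calls required on all arrays, 364 with array weights, 8 in eBayes without trend and 13 with no filter on dim probe sets. Leaving out 1 array gave 0 to 27, with 0 without Shaziling 6 (1096 at an unadjusted p under 0.05) and 0 without Yorkshire 1 (1020), 5 without Shaziling 5 and 11 without Yorkshire 2. Members past the threshold numbered 0 in every alternative except array weights, where ATPAF1 was the 1 called. Complex medians stayed below 0 in every alternative and moved by less than their within-breed SD of 0.15, 0.18 and 0.14. With 1 array left out they were -0.24 to -0.05 for complex III, -0.24 to -0.01 for complex IV and -0.28 to -0.14 for complex V. Of 793 member values under alternatives, 762 kept their direction and side of the threshold, and 30 turned sign in 14 members, 15 of these with 1 array left out. With percent Present as a covariate the turned values were 0.03 for UQCR10, 0.00 for COX7A2, -0.04 for ATP5E, 0.20 for ATP5I and 0.08 for ATP5J2. Array weights turned COX6C to -0.03 and COX8H to -0.01. Cyclic loess turned COX6C to -0.04, COX8H to -0.02 and ATP5E to -0.07, and quantile normalization turned them to -0.04, -0.02 and -0.06. Median centring turned COX7A1 to 0.05 and ATP5J2 to 0.03. With 1 array left out, the members that turned sign ranged from -0.21 to 0.04 for the subunit 10-like gene of complex III, -0.22 to 0.09 for COX5B, -0.08 to 0.28 for COX6A1, -0.12 to 0.18 for COX6A2, -0.03 to 0.14 for COX6C, -0.13 to 0.13 for COX7A1, -0.26 to 0.01 for COX7B, -0.07 to 0.28 for COX8H, -0.05 to 0.16 for ATP5E, -0.19 to 0.05 for ATP5G2, -0.74 to 0.33 for ATP5I and -0.16 to 0.07 for ATP5J2. Among isoform pairs, COX6A2 minus COX6A1 turned to 0.03 under quantile normalization. With 1 array left out, an alternative chosen after seeing the data, that pair ranged from -0.18 to 0.11, ATP5G1 minus ATP5G3 from -0.11 to 0.09 and ATP5G2 minus ATP5G3 from -0.03 to 0.47, while COX7A1 minus COX7A2 (0.17 to 0.83) and ATP5G1 minus ATP5G2 (-0.38 to -0.07) kept their sign. The causes of these changes were not tested.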
